A study of Brassica napus with 36 samples.

Results

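The loci described here encode rapeseed homologues of the cold-regulated proteins COR15, KIN and LTI65, in leaves of the varieties HX17 and HX58 of Brassica napus. A locus was taken as a member where its deposited Swiss-Prot description names COR15A, COR15B, a stress-induced KIN protein, LTI65 or LTI78. The rule found 26 loci among the 106340 genes of the table, of which 1 matched COR15A, 8 COR15B, 4 KIN2 and 13 LTI65, and none matched KIN1 or LTI78. The largest class by number of loci was thus LTI65, which is not a COR15 or KIN protein.

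HX17 and HX58 are early-maturing semi-winter rapeseed varieties, and RNA from the third leaf from the top gave 36 libraries, with 3 replicates of each variety in each of 6 conditions. In CA and FA, seedlings stood for 4 weeks at 20° in the light and 16° in the dark, were acclimated for 14 days at 4°, and were then held for 12 h at 4° (chilling, CA) or -4° (freezing, FA). In CB and FB, seedlings had 6 weeks at 20/16° without acclimation before the same 12 h at 4° (CB) or -4° (FB). MA and MB are the untreated controls of the A and B series, kept at 20/16° throughout, and no mutant, transgene or chemical was used. The 12 h ran from evening to morning, and leaves were taken at the end. The study's methods do not say uniformly whether replicates were separate plants, so p-values measure only the spread between these samples, which may be technical in part.

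In Arabidopsis, COR15A and COR15B are small, very hydrophilic proteins of the chloroplast stroma that protect membranes when cells lose water by freezing. KIN2 is a small hydrophilic cytoplasmic protein of the same cold response, and LTI65, also known as RD29B, is a larger hydrophilic protein whose gene answers mainly to drought, salt and abscisic acid. The COR15 and KIN genes are targets of the CBF (DREB1) transcription factors, which bind the C-repeat element, and are usual markers of cold acclimation in leaves. Abscisic acid factors of the ABF family also have targets among these genes, LTI65 included.

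Counts were found at a mean CPM (counts scaled to the library total) of 1 or more for 10 of the 26 loci. The COR15A locus BnaA03g56740D lay at 846849 to 847946 on A03_random, between the COR15B loci BnaA03g56650D (805838 to 806935) and BnaA03g56750D (858995 to 859666) of the same sequence. The COR15B loci BnaC03g23750D (13250436 to 13251108) and BnaC03g23770D (13254623 to 13255762) were neighbours on C03, 3514 bases apart. The KIN2 loci were BnaA02g02910D (A02, 1297934 to 1298430), BnaA10g18350D (A10, 13324509 to 13325105) and BnaAnng37980D (Ann_random, 43016539 to 43016993), and the LTI65 loci were BnaA02g10970D (A02, 5700689 to 5702820) and BnaC02g15270D (C02, 10763665 to 10765889). The coordinates are those of the deposited table for the Genoscope genome. Coding lengths were 198 bases for each KIN2 locus, 390 to 429 bases for the COR15 loci and 1659 and 1854 bases for these LTI65 loci. Of the other 16 loci, 12 had a mean CPM under 1 and 4 (BnaA06g39760D, BnaC03g45910D, BnaC07g22530D and BnaCnng31850D) had no count in any library. Copies on the A and C subgenomes and neighbouring copies share a protein match, and their sequences were not compared here. Reads may have been divided between them, so a value for a single locus is uncertain.

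Library totals ran from 32214015 to 59290772 counts, a total in which some fragments count once for each mate. The leaf list (LHCB1.3 and 3 other matched symbols) summed to 27386 to 128035 FPKM per library, and the seed and root lists to at most 0.956 and 1.04 FPKM, with no count for 7 of 13 seed and 11 of 17 root loci. LHCB1.3 alone gave 25798 to 123894 FPKM per library. BCA1 gave 293 to 7231, GAPA1 417 to 1351 and RBCS-1A only 0 to 45.4 FPKM. The leaf sum was thus mostly LHCB1.3, and its differences between groups do not show that the leaf symbols moved together. The leaf list was highest in HX58_CA and HX58_FA (109696 to 128035 FPKM) and in HX17_FA (84085 to 118950.0 FPKM) and was 27386 to 55029 FPKM in the CB and FB groups, and its part in the results below was not tested. In leaf samples, fewer cells of a type and less RNA per cell cannot be told apart.

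The summed level of each class, in FPKM (fragments scaled to transcript length and library total), stood above the control in every cold group, and the classes differed in which cold group was lowest. COR15 summed to 174 ± 30.7 FPKM in HX17_MA and 78.4 ± 15.2 FPKM in HX17_MB (mean ± SD, n = 3 libraries here and below). It reached 4735 ± 473 FPKM in HX17_CA, 1875 ± 212 in HX17_FA, 8762 ± 1605 in HX17_CB and 12559 ± 2266 in HX17_FB. COR15 was therefore lowest among the cold groups in acclimated and frozen leaves and highest in leaves frozen without acclimation. In HX58 the same sums were 625 ± 83.8 FPKM in HX58_MA and 290.2 ± 32.5 in HX58_MB, and 7827 ± 607, 2205 ± 139.7, 8768 ± 1577 and 13762 ± 1832 FPKM in HX58_CA, HX58_FA, HX58_CB and HX58_FB. By mean, FA was the lowest and FB the highest cold group in both varieties, while the CA and CB libraries of HX58 overlapped. The controls of HX58 stood above those of HX17.

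KIN2 had the largest sums of the classes in every group in FPKM, which is scaled to length. By mean share of counts, COR15 stood above KIN2 in every cold group (0.530% against 0.357% in HX17_FB and 0.582% against 0.329% in HX58_FB). KIN2 summed to 392 ± 44.3 and 359 ± 85.9 FPKM in HX17_MA and HX17_MB, and to 9900.3 ± 1223, 3868 ± 1077, 10112 ± 683 and 18032 ± 1918 FPKM in HX17_CA, HX17_FA, HX17_CB and HX17_FB. The corresponding sums in HX58 were 1784 ± 306 and 917 ± 229.5 FPKM in the controls, and 12288 ± 1146, 4569 ± 555, 13062 ± 763 and 16633 ± 546 FPKM in the cold groups. FA was again the lowest cold group and FB the highest, while CA and CB overlapped in both varieties. LTI65 behaved otherwise. Its sum was 4.87 ± 1.14 and 9.28 ± 3.57 FPKM in the HX17 controls, 62.3 ± 3.91 in HX17_CB, 326 ± 184 in HX17_CA, 459.9 ± 91.6 in HX17_FA and 2591 ± 199 in HX17_FB. In HX58 it was 19.1 ± 5.86 and 11.9 ± 5.05 FPKM in the controls, 126 ± 18.1 in HX58_CB, 211 ± 51.2 in HX58_CA, 977 ± 271 in HX58_FA and 2030.3 ± 364 in HX58_FB. Both freezing groups of LTI65 thus stood above both chilling groups by mean, and CB, not FA, was its lowest cold group.

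**Figure D1:**
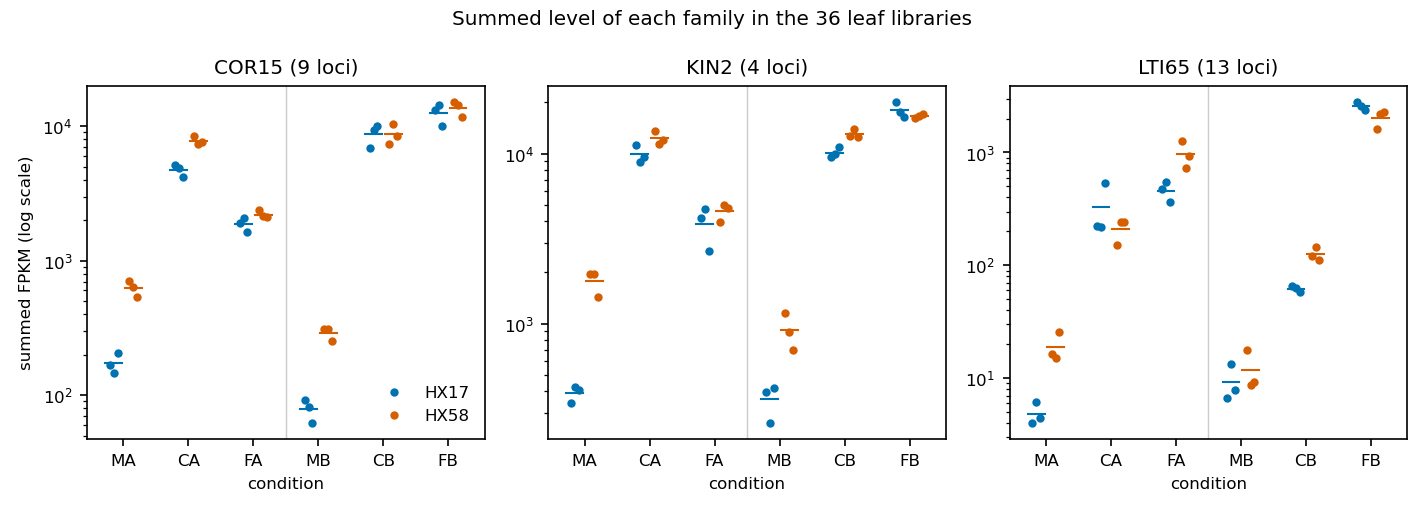
Summed FPKM (log axis) of the COR15, KIN2 and LTI65 loci in each of the 36 libraries, by variety and condition. Points are libraries and bars are group means. COR15 and KIN2 are lowest among the cold groups in FA, and LTI65 is lowest among them in CB.

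By ratio of group means (± SD from the SDs of both groups), COR15 was 27.3 ± 5.54, 10.8 ± 2.27, 112 ± 29.8 and 160.1 ± 42.4 times its control in HX17_CA, HX17_FA, HX17_CB and HX17_FB, against 12.5 ± 1.94, 3.53 ± 0.522, 30.2 ± 6.40 and 47.4 ± 8.25 times in HX58. KIN2 was 25.3 ± 4.23, 9.88 ± 2.97, 28.2 ± 7.01 and 50.2 ± 13.2 times its control in HX17 and 6.89 ± 1.34, 2.56 ± 0.538, 14.3 ± 3.66 and 18.1 ± 4.58 times in HX58. LTI65 was 67.0 ± 41.0, 94.4 ± 29.1, 6.71 ± 2.62 and 279 ± 110 times its control in HX17 and 11.1 ± 4.32, 51.1 ± 21.1, 10.6 ± 4.73 and 170.5 ± 78.5 times in HX58. In HX17_CA the LTI65 sum was 539 FPKM in replicate 3, against 222 and 218 in replicates 1 and 2. The ratios of COR15 and KIN2 were lower in HX58 in every cold group, where the control levels were higher. All members together took between 0.0105% of the counts of a library, in HX17_MB, and 1.45%, in HX17_FB. By mean FPKM, the KIN2 locus BnaAnng37980D ranked 4 among all genes of the table in HX17_FB, and the KIN2 locus BnaA02g02910D ranked 6 in HX17_FB, 7 in HX58_CB and 8 in HX58_FB.

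The COR15A locus BnaA03g56740D was the weakest of the counted COR15 loci. Its FPKM in replicates 1 to 3 were 3.72, 2.12 and 3.59 in HX17_MA, 37.5, 43.8 and 29.3 in HX17_CA and 10.8, 17.9 and 10.9 in HX17_FA. In the series without acclimation they were 3.82, 2.13 and 1.98 in HX17_MB, 40.2, 65.8 and 94.5 in HX17_CB and 89.3, 114 and 51.4 in HX17_FB. No cold library of HX17 overlapped its control, and the values in HX17_CB and HX17_FB overlapped each other. In HX58 they were 7.08, 6.48 and 5.71 in HX58_MA, 44.7, 35.7 and 20.6 in HX58_CA and 6.16, 8.77 and 7.44 in HX58_FA. Here HX58_FA overlapped HX58_MA. They were 6.10, 7.33 and 2.70 in HX58_MB, 17.7, 36.8 and 41.3 in HX58_CB and 77.6, 72.9 and 65.7 in HX58_FB, with each freezing library above each chilling library.

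The COR15B locus BnaA03g56650D, on the same sequence, had more than 10 times the mean FPKM (795 against 30.4 over the 36 libraries). Its FPKM were 54.9, 28.3 and 47.8 in HX17_MA, 829, 826 and 639 in HX17_CA and 365, 378 and 319 in HX17_FA, and 32.0, 23.0 and 23.3 in HX17_MB, 1179, 1516 and 2094 in HX17_CB and 2489.9, 2639 and 1599.8 in HX17_FB. The freezing libraries lay below the chilling libraries after acclimation and overlapped them without it. In HX58 its FPKM were 87.6, 104 and 58.7 in HX58_MA, 980.4, 855 and 885 in HX58_CA and 371, 356 and 307 in HX58_FA, and 89.4, 108 and 54.3 in HX58_MB, 953, 1975 and 1065 in HX58_CB and 2008, 1598 and 1693 in HX58_FB. HX58_CB replicate 2 stood apart from the other HX58_CB replicates and reached the level of HX58_FB.

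BnaA03g56750D and BnaC03g23750D were the COR15B loci with the highest levels, with mean FPKM of 1786 and 2112. The FPKM of BnaA03g56750D were 23.8, 29.2 and 48.2 in HX17_MA, 1479.8, 1430.3 and 1192 in HX17_CA and 663, 786 and 613 in HX17_FA, and 16.2, 11.4 and 7.82 in HX17_MB, 2395, 3567 and 3306 in HX17_CB and 4104, 4697 and 3186 in HX17_FB. The HX58 libraries had 192, 179 and 127 in HX58_MA, 2987, 2514 and 2605 in HX58_CA and 825, 670.0 and 701 in HX58_FA, and 41.4, 28.0 and 57.5 in HX58_MB, 2540.4, 3687 and 3235 in HX58_CB and 6232, 5920.0 and 4212 in HX58_FB. The MB libraries were below the MA libraries of the same variety at this locus, and those of HX58_MB were still at or above 28.0 FPKM, against at most 16.2 in HX17_MB. The FPKM of BnaC03g23750D were 23.5, 42.5 and 45.4 in HX17_MA, 2355, 2095 and 2079 in HX17_CA and 692, 640.2 and 470.3 in HX17_FA, and 15.2, 16.2 and 8.38 in HX17_MB, 2654, 3496 and 3753 in HX17_CB and 5490.4, 6039 and 4460.2 in HX17_FB. In HX58 this locus had 300.3, 235 and 249.8 in HX58_MA, 3698, 3322 and 3474 in HX58_CA and 953, 868 and 877 in HX58_FA, and 57.0, 42.8 and 76.9 in HX58_MB, 3434, 4209 and 3585 in HX58_CB and 5615, 5761 and 4901 in HX58_FB. In both varieties the FA libraries of this locus lay below all CA, CB and FB libraries. The fourth counted COR15B locus, BnaC03g23770D, ran from 19.9 FPKM in HX17_MB to 1213 FPKM in HX58_FB over single libraries, with the lowest cold group mean in FA (219 FPKM in HX17 and 222 FPKM in HX58).

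Among the KIN2 loci, BnaA02g02910D had the highest mean (3447 FPKM) and the highest control levels. Its FPKM were 238, 292 and 255 in HX17_MA, 6784, 5549 and 5723 in HX17_CA and 2283, 2444 and 1456 in HX17_FA, and 307, 167 and 259 in HX17_MB, 4620.1, 3939.6 and 4429 in HX17_CB and 7302, 6490.2 and 5719.7 in HX17_FB. In HX58 they were 1227, 1183 and 998 in HX58_MA, 7305, 6467 and 6860.0 in HX58_CA and 1742, 2259 and 2217 in HX58_FA, and 778, 532 and 514 in HX58_MB, 5575, 4473 and 5171 in HX58_CB and 5821, 6160.1 and 6564 in HX58_FB. Each HX58_FA library was thus above each HX58_MA library and below every other cold library of HX58. BnaAnng37980D had a mean of 3252 FPKM. Its FPKM were 101, 126 and 149 in HX17_MA, 4319, 3146 and 3427 in HX17_CA and 1879.8, 2281 and 1172 in HX17_FA, and 89.3, 91.1 and 157 in HX17_MB, 4463, 5438 and 5542 in HX17_CB and 12107, 10215 and 9976 in HX17_FB. Its FPKM in HX58 were 661, 737 and 413 in HX58_MA, 4629.6, 3898 and 3879 in HX58_CA and 2019, 2466 and 2379 in HX58_FA, and 356, 354 and 173 in HX58_MB, 3725, 3716 and 3754 in HX58_CB and 5555, 6767 and 6899.7 in HX58_FB. Each HX17_FB library was above every other library of the series at this locus.

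BnaA10g18350D was the KIN2 locus with the widest fold range of levels, and it differed between the varieties. Its FPKM were 1.83, 5.72 and 5.23 in HX17_MA, 165, 219 and 369 in HX17_CA and 20.9, 27.4 and 40.4 in HX17_FA, and 2.47, 2.27 and 2.42 in HX17_MB, 453, 554 and 895 in HX17_CB and 698, 959.9 and 628 in HX17_FB. In HX58 they were 63.0, 48.6 and 20.2 in HX58_MA, 1629, 979 and 1217 in HX58_CA and 183, 278 and 163 in HX58_FA, and 21.0, 11.8 and 9.59 in HX58_MB, 3412, 5721 and 3589 in HX58_CB and 4731, 3594 and 3719 in HX58_FB. Each HX58 library was above each HX17 library of the same condition. The share of BnaA10g18350D among the KIN2 loci differed accordingly. The ratio of BnaA02g02910D to BnaA10g18350D in single libraries was 48.8 to 130 in HX17_MA and 0.782 to 1.63 in HX58_CB.

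**Figure D2:**
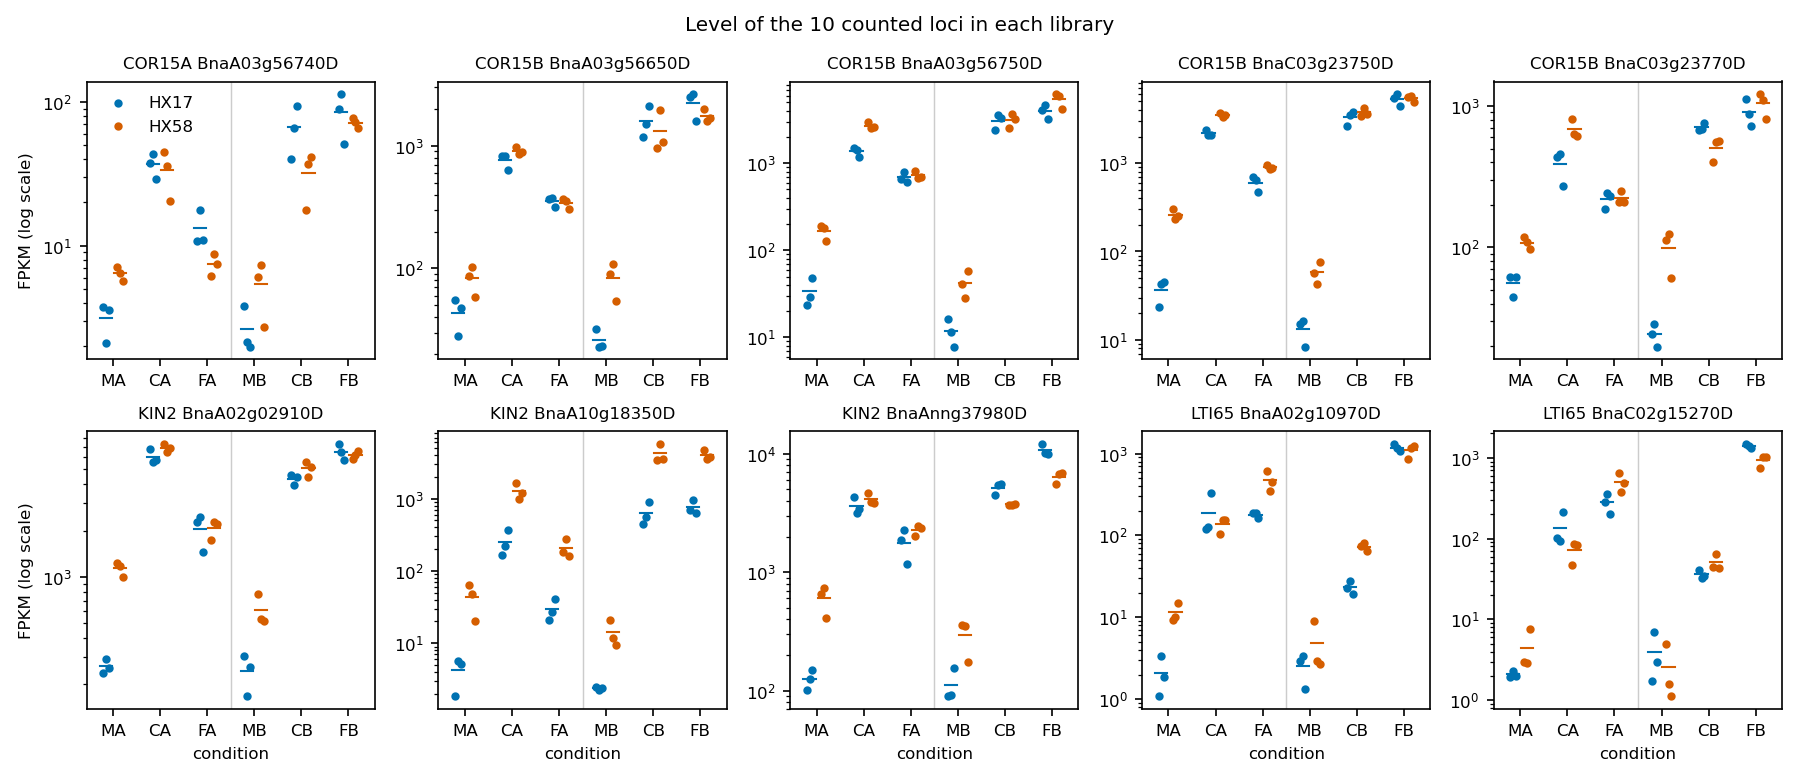
FPKM (log axis) of the 10 loci with a mean CPM of 1 or more in each of the 36 libraries, by variety and condition. Points are libraries and bars are group means. The KIN2 locus BnaA10g18350D is higher in each HX58 library than in each HX17 library of the same condition, and the LTI65 loci are highest in FB.

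The LTI65 locus BnaA02g10970D had FPKM of 1.08, 3.36 and 1.89 in HX17_MA, 119, 125 and 326 in HX17_CA and 186, 187 and 163 in HX17_FA, and 2.96, 3.33 and 1.32 in HX17_MB, 22.7, 28.0 and 19.3 in HX17_CB and 1311, 1170.3 and 1066 in HX17_FB. In HX58 its FPKM were 9.35, 10.1 and 14.99 in HX58_MA, 105, 153 and 155 in HX58_CA and 616, 346 and 447 in HX58_FA, and 8.98, 2.91 and 2.70 in HX58_MB, 73.4, 79.8 and 64.2 in HX58_CB and 868, 1176 and 1249 in HX58_FB. HX17_CA replicate 3 stood above both other HX17_CA replicates and above every HX17_FA library. The LTI65 locus BnaC02g15270D had FPKM of 1.96, 2.33 and 2.02 in HX17_MA, 103, 92.2 and 213 in HX17_CA and 286, 357 and 199 in HX17_FA, and 1.73, 7.07 and 2.97 in HX17_MB, 41.1, 32.9 and 34.8 in HX17_CB and 1485, 1402 and 1332 in HX17_FB. The HX58 values were 2.96, 2.85 and 7.67 in HX58_MA, 46.7, 85.7 and 84.1 in HX58_CA and 643, 379.6 and 485 in HX58_FA, and 4.99, 1.58 and 1.11 in HX58_MB, 44.0, 64.7 and 43.6 in HX58_CB and 745, 1013 and 1035 in HX58_FB. At both loci the FB libraries were above all other libraries of their variety. The Swiss-Prot match to LTI65 had an E value of 2.78e-75 for BnaA02g10970D and 1.73e-71 for BnaC02g15270D. The LTI65 loci with the strongest matches, BnaA03g12660D, BnaC02g15280D and BnaC03g15510D (E value listed as 0) and BnaA02g10980D (1.59e-179), had mean levels of at most 0.494 FPKM. BnaA02g10980D lay 3711 bases from BnaA02g10970D, and BnaC02g15280D lay 20527 bases from BnaC02g15270D. The 2 counted loci are thus weaker matches to LTI65 than these low neighbours. Their class name rests on the deposited description alone, and whether LTI65 is their closest relative was not tested.

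Each cold group was compared with its control to ask which loci responded to each treatment. A locus was called where its level differed at least 2-fold and its adjusted p was below 0.005 in edgeR's quasi-likelihood test, with Benjamini-Hochberg adjustment over all genes tested and n = 3 libraries against 3. In HX17_CA vs. HX17_MA 10 of 10 tested members were higher, where 0.608% of all tested genes were called higher. The counts were 10 of 10 in HX17_FA vs. HX17_MA (5.26% of all genes), 10 of 12 in HX17_CB vs. HX17_MB (5.98%) and 11 of 12 in HX17_FB vs. HX17_MB (12.8%). None was lower, where 0.449%, 2.63%, 8.19% and 13.3% of all genes were lower in CA, FA, CB and FB. In HX58 10 of 12 were higher in HX58_CA vs. HX58_MA (2.6% of all genes), 8 of 14 in HX58_FA vs. HX58_MA (9.42%), 10 of 13 in HX58_CB vs. HX58_MB (14.2%) and 11 of 14 in HX58_FB vs. HX58_MB (16.1%). One LTI65 locus each was lower in HX58_CB vs. HX58_MB and HX58_FB vs. HX58_MB, where 11.8% and 13.6% of all genes were lower, and none was lower in HX58_CA or HX58_FA (2.77% and 7.26% of all genes). A low locus enters the test through the group in which it is high, so the numbers tested are not all members. The 10 loci with a mean CPM of 1 or more had median log2 fold changes of 5.11, 3.53, 4.97 and 7.51 in HX17_CA, HX17_FA, HX17_CB and HX17_FB, and 3.57, 1.96, 3.98 and 5.45 in the same order in HX58, beside medians of -0.05 to 0.04 over all tested genes. Against the other control group of the same variety, the counts were 10, 10, 10 and 11 in HX17 and 10, 11, 10 and 11 in HX58.

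**Figure D3:**
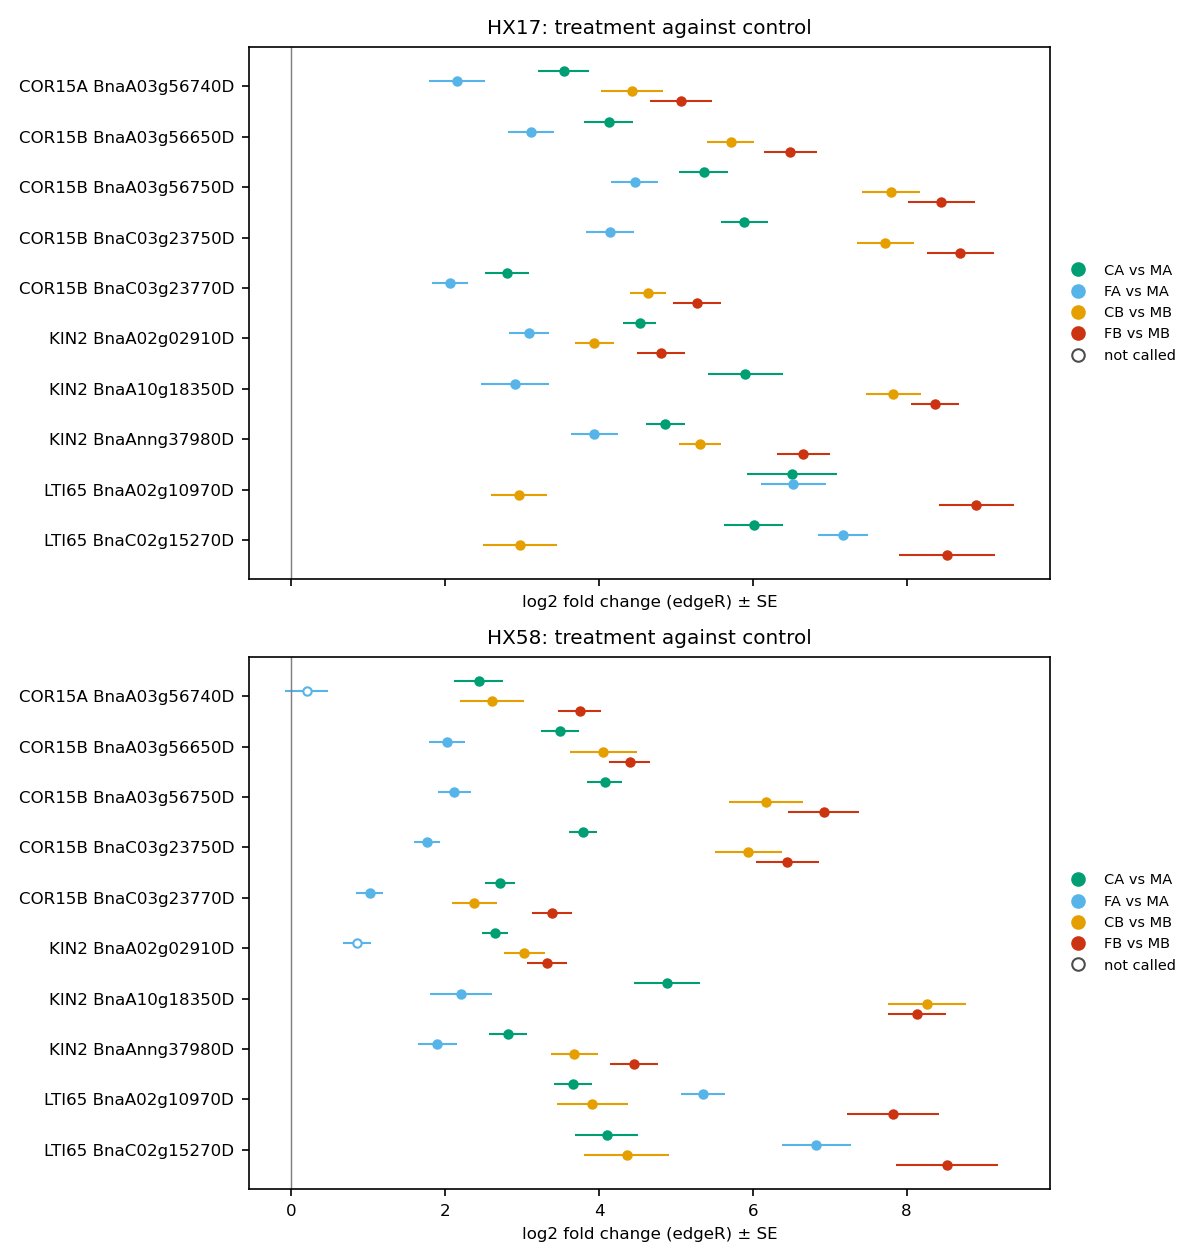
Log2 fold change (edgeR, ± SE) of the 10 loci with a mean CPM of 1 or more in each cold group against its control, in HX17 and HX58. Open symbols were not called. COR15A BnaA03g56740D and KIN2 BnaA02g02910D in HX58_FA are the only open symbols.

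The rise of the COR15A locus BnaA03g56740D was 3.54 ± 0.33 in HX17_CA, 2.15 ± 0.36 in HX17_FA, 4.43 ± 0.40 in HX17_CB and 5.06 ± 0.41 in HX17_FB (log2 fold change ± SE, here and below). In HX58 it rose by 2.44 ± 0.32 in HX58_CA, 2.61 ± 0.42 in HX58_CB and 3.75 ± 0.28 in HX58_FB, and its value of 0.20 ± 0.28 in HX58_FA was not called (edgeR adjusted p = 0.61). Its call in HX17_FA was lost without HX17_FA replicate 1 or 2 or any HX17_MA replicate (edgeR adjusted p of 0.00649 to 0.0097), and in HX58_CA without HX58_CA replicate 1 (0.00704) or 2 (0.00563). It was lost in HX17_CA without HX17_CA replicate 2 (0.00835), HX17_MA replicate 1 (0.0119) or HX17_MA replicate 3 (0.00815), and in HX58_CB without HX58_CB replicate 3 (0.005004).

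The COR15B loci BnaA03g56650D, BnaA03g56750D, BnaC03g23750D and BnaC03g23770D rose in all 8 comparisons. The largest rises were those of BnaC03g23750D in HX17_FB (8.70 ± 0.43) and BnaA03g56750D in HX17_FB (8.45 ± 0.43). The smallest was that of BnaC03g23770D in HX58_FA (1.02 ± 0.17). BnaA03g56750D rose by 5.36 ± 0.32 in HX17_CA, 4.47 ± 0.31 in HX17_FA and 7.80 ± 0.38 in HX17_CB, and by 4.07 ± 0.23, 2.12 ± 0.22, 6.17 ± 0.48 and 6.92 ± 0.46 in HX58_CA, HX58_FA, HX58_CB and HX58_FB. Its calls held with any 1 library left out, as did those of BnaC03g23750D. The call of BnaC03g23770D in HX58_FA was lost without HX58_FA replicate 1, 2 or 3 or HX58_MA replicate 1 or 3 (edgeR adjusted p of 0.00527 to 0.0113), and that in HX17_CA without HX17_CA replicate 1 (0.00625) or 2 (0.00958) or any HX17_MA replicate (0.00617 to 0.0138).

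KIN2 BnaA02g02910D rose by 4.53 ± 0.22, 3.09 ± 0.27, 3.94 ± 0.26 and 4.80 ± 0.31 in HX17_CA, HX17_FA, HX17_CB and HX17_FB. In HX58 it rose by 2.65 ± 0.17, 3.03 ± 0.27 and 3.33 ± 0.26 in HX58_CA, HX58_CB and HX58_FB, and its value of 0.85 ± 0.19 in HX58_FA was not called (edgeR adjusted p = 0.00639), although the 3 libraries were above all 3 controls. Among the KIN2 loci, the largest rises were those of BnaA10g18350D, 8.37 ± 0.31 in HX17_FB and 8.27 ± 0.51 in HX58_CB. Its calls in HX17_CA and HX17_FA were lost without HX17_MA replicate 3 (edgeR adjusted p = 0.00561 and 0.00534), in HX17_CA also without HX17_MA replicate 1 (0.00572) and in HX17_FA also without HX17_FA replicate 3 (0.00565). The call of its rise in HX58_FA (2.203 ± 0.41) was lost without HX58_FA replicate 1, 2 or 3 or HX58_MA replicate 2 (edgeR adjusted p of 0.00698 to 0.0127), with log2 fold changes of 1.93 to 2.36. KIN2 BnaAnng37980D rose by 1.90 in HX58_FA to 6.66 in HX17_FB over the 8 comparisons.

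The LTI65 loci rose most in FB in both varieties. BnaA02g10970D rose by 8.90 ± 0.49 in HX17_FB and 7.82 ± 0.59 in HX58_FB, against 2.96 ± 0.36 in HX17_CB and 3.91 ± 0.47 in HX58_CB. After acclimation it rose by 6.50 ± 0.59 and 6.53 ± 0.42 in HX17_CA and HX17_FA, and by 3.66 ± 0.24 and 5.35 ± 0.28 in HX58_CA and HX58_FA. BnaC02g15270D rose by 8.52 ± 0.62 and 8.52 ± 0.66 in HX17_FB and HX58_FB and by 7.17 ± 0.32 and 6.83 ± 0.45 in HX17_FA and HX58_FA. The call of its rise in HX17_CB (2.97 ± 0.48) was lost without HX17_CB replicate 1 (edgeR adjusted p = 0.00606), HX17_MB replicate 1 (0.00819) or HX17_MB replicate 3 (0.0149), with log2 fold changes of 2.57 to 2.85, and that of BnaA02g10970D without HX17_MB replicate 1 (0.0057), at 3.04. In HX17_CA vs. HX17_MA the number of members called was 4 without HX17_MA replicate 1, with edgeR adjusted p of 0.00505 to 0.0138 for the others, and 5 without HX17_MA replicate 3 (0.00542 to 0.0105), while every fold change stayed above 2.65 on the log2 scale.

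Freezing was then compared with chilling within the same history, which asks whether the last 12 h at -4° changed the loci beyond 4°. The COR15 and KIN2 calls were lower at -4° after acclimation, most of them in HX58, and both counted LTI65 loci were higher at -4° without acclimation in both varieties. In HX58_FA vs. HX58_CA 7 of 13 tested members were lower, where 7.56% of all tested genes were called lower, and 3 were higher (8.4%). In HX17_FA vs. HX17_CA 2 of 10 were lower (0.867% of all genes) and none higher (3.35%), and none was called without HX17_FA replicate 2. In HX17_FB vs. HX17_CB 3 of 13 (2.38% of all genes) and in HX58_FB vs. HX58_CB 2 of 12 (2.57%) were higher, and none was lower (0.467% and 0.352%).

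In HX58_FA vs. HX58_CA the log2 fold change was -2.29 ± 0.30 for COR15A BnaA03g56740D, and -2.07 to -1.51 for the 4 COR15B loci, with -2.07 ± 0.09 for BnaC03g23750D (edgeR adjusted p = 4.78e-07). It was -2.72 ± 0.24 for KIN2 BnaA10g18350D and -1.84 ± 0.12 for KIN2 BnaA02g02910D. KIN2 BnaAnng37980D, at -0.97 ± 0.12, passed the p limit (edgeR adjusted p = 0.000178) but not the fold limit, and was called without HX58_CA replicate 3 (-1.001) or HX58_FA replicate 2 (-1.02). All of these calls of COR15 and KIN2 held with any 1 library left out. In HX17_FA vs. HX17_CA, KIN2 BnaA10g18350D (-3.02 ± 0.36) and COR15B BnaC03g23750D (-1.78 ± 0.23) were called. The first was lost without HX17_FA replicate 1 (edgeR adjusted p = 0.00848) or 2 (0.00552) and the second without HX17_CA replicate 1 (0.00574), HX17_CA replicate 2 (0.00835) or HX17_FA replicate 2 (0.00643). The other COR15 and KIN2 loci had values of -1.47 to -0.77 (edgeR adjusted p of 0.00567 to 0.0775) and were not called, and no FA library overlapped a CA library at any of them.

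The LTI65 loci went the other way. BnaA02g10970D was higher by 5.97 ± 0.25 in HX17_FB vs. HX17_CB (edgeR adjusted p = 2.96e-05) and by 3.96 ± 0.30 in HX58_FB vs. HX58_CB (9.53e-05). BnaC02g15270D was higher by 5.57 ± 0.23 (2.96e-05) and 4.22 ± 0.35 (0.000145) by the same test, and these 4 calls held with any 1 library left out. After acclimation both loci were still higher at -4° in HX58, by 1.65 ± 0.22 and 2.68 ± 0.26 (edgeR adjusted p = 0.000311 and 4.54e-05). In HX17 the values were -0.01 ± 0.37 and 1.12 ± 0.35 and neither was called (0.992 and 0.0683), with HX17_CA replicate 3 high at both loci. Without that replicate BnaA02g10970D was at 0.61, and its sign turned. Of the COR15 and KIN2 loci, only KIN2 BnaAnng37980D was called without acclimation, higher by 1.36 ± 0.19 in HX17_FB vs. HX17_CB (edgeR adjusted p = 0.00318), and this call was lost with any 1 of the 6 libraries left out (0.00696 to 0.0224) and with library totals in place of TMM factors (1.06, 0.00767). The other COR15 and KIN2 loci had values of 0.56 to 0.99 in HX17 and of -0.07 to 1.20 in HX58.

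**Figure D4:**
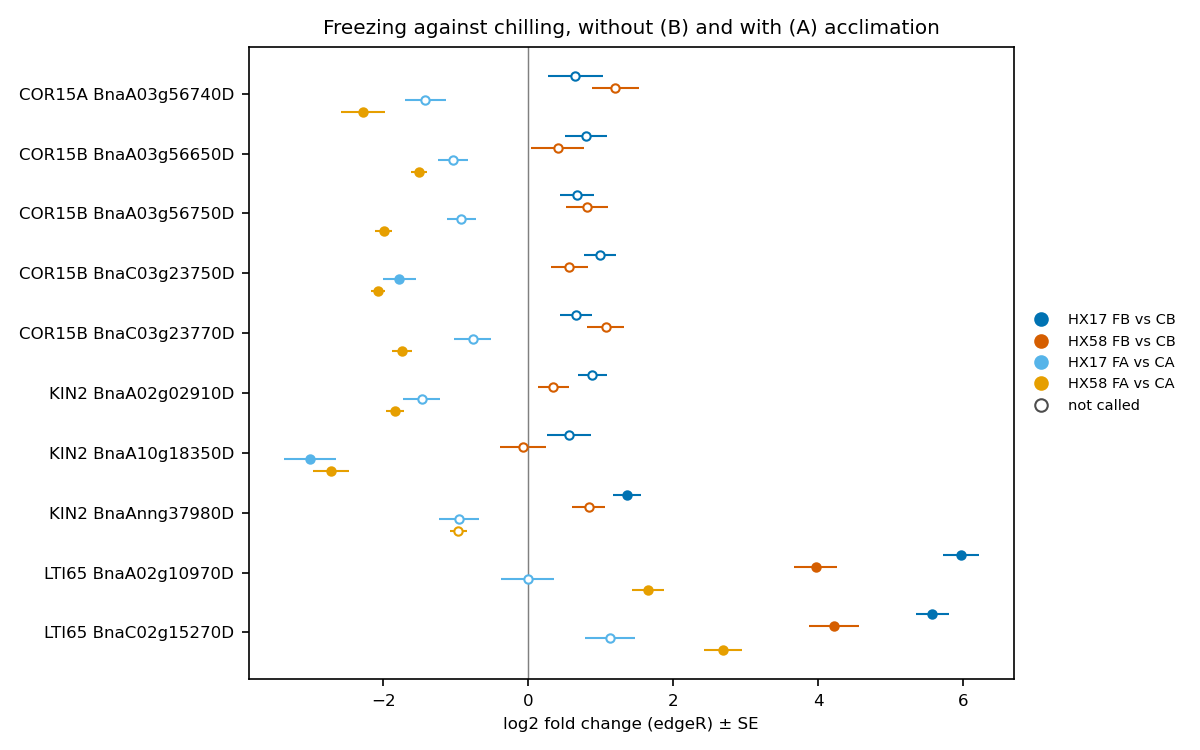
Log2 fold change (edgeR, ± SE) of freezing against chilling for the 10 loci with a mean CPM of 1 or more, with (FA vs. CA) and without (FB vs. CB) acclimation. Open symbols were not called. COR15 and KIN2 loci lie below 0 after acclimation and all but 1 value of theirs above 0 without it, and LTI65 loci lie highest without acclimation.

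The difference between the responses to freezing with and without acclimation was tested itself, as (FA - CA) - (FB - CB) over 12 libraries. It was called and negative for 8 of 14 tested members in HX58, where 3.4% of all tested genes were negative, and for 5 of 13 in HX17, where 0.106% of all genes were. No member was positive, where 2.92% and 0.0768% of all genes were. In HX58 they were the COR15A locus, 3 COR15B, 3 KIN2 and 1 LTI65 loci, and in HX17 they were 2 KIN2 loci, 1 COR15B locus and both counted LTI65 loci. A negative value means that the change at -4° was lower, or the fall larger, after acclimation. In HX17 the count was 1 without HX17_FA replicate 1 and 4 at most without any other library.

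Leaves frozen after acclimation were also compared with leaves frozen without it. In HX17_FA vs. HX17_FB 9 of 11 tested members were lower (2.97% of all genes) and none higher (4.43%), and in HX58_FA vs. HX58_FB 9 of 14 were lower (12.6%) and 1 was higher (9.89%). The differences were -4.45 ± 0.33 in HX17 and -4.15 ± 0.27 in HX58 for KIN2 BnaA10g18350D, and -2.91 ± 0.29 and -2.48 ± 0.16 for COR15B BnaC03g23750D. COR15A BnaA03g56740D was lower by 2.45 ± 0.35 and 3.16 ± 0.18 on the log2 scale. LTI65 BnaA02g10970D and BnaC02g15270D were lower in HX17 (-2.49 ± 0.25 and -2.09 ± 0.29) and not called in HX58. The HX17 calls rested in part on 1 library, since 3 remained without HX17_FA replicate 1, where the edgeR adjusted p of BnaA03g56740D was 0.0128 and that of BnaC02g15270D 0.0115. The calls of BnaA10g18350D, BnaC03g23750D and BnaA02g10970D held there.

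For chilling with against without acclimation, few members were called at edgeR's limits. Unadjusted edgeR p was under 0.05 for 7 of 12 tested in HX17 and 6 of 11 in HX58, and DESeq2 called 4 and 2. In HX17_CA vs. HX17_CB 1 of 12 was higher (1.23% of all genes) and none lower (0.242%), with LTI65 BnaA02g10970D at 3.55 ± 0.42 (edgeR adjusted p = 0.0032). LTI65 BnaC02g15270D, at 2.42 ± 0.33, stood at the limit (edgeR adjusted p = 0.005) and was called without HX17_CA replicate 3 (1.97, 0.00229). In HX58_CA vs. HX58_CB 1 of 11 was higher (8.91% of all genes), BnaA02g10970D with 1.21 ± 0.23, and 1 was lower (8.25%), KIN2 BnaA10g18350D with -1.48 ± 0.31. The call of BnaA02g10970D in HX17 was lost without any library other than HX17_CA replicate 3 (edgeR adjusted p of 0.00762 to 0.0173), and in HX58 without any other than HX58_CB replicate 2 (0.00569 to 0.0191). That of BnaA10g18350D was lost without HX58_CB replicate 3 (0.00578) or any HX58_CA replicate (0.0125 to 0.029). With library totals in place of TMM factors, an alternative chosen after seeing the data, the median of all genes moved by -0.53 in HX17 and -0.31 in HX58 on the log2 scale and the share of calls that were higher from 83.6% to 31.0% and from 51.9% to 33.3%. The value of BnaA02g10970D in HX58 was then 0.93 and not called, and KIN2 BnaAnng37980D in HX17 moved from 0.03 ± 0.20 to -0.50.

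The 2 controls of a variety were both kept at 20/16°, and no member was called between them at edgeR's limits, of 11 tested in HX17_MB vs. HX17_MA (0.864% of all genes higher and 0.239% lower) and 13 in HX58_MB vs. HX58_MA (0.00563% and 0.00938%). Unadjusted p was under 0.05 for 5 and 6 of them, and DESeq2 called 3 and 5. COR15B BnaA03g56750D was at -1.75 ± 0.33 in HX17 and -2.09 ± 0.35 in HX58 (edgeR adjusted p = 0.0175 and 0.0225), and COR15B BnaC03g23750D at -1.72 ± 0.33 and -2.26 ± 0.30 (0.0172 and 0.0142). MB and MA libraries did not overlap at these loci, so a fold change against MB starts from a lower control level than one against MA. COR15B BnaC03g23770D was called lower in HX17_MB without HX17_MA replicate 2 (-1.62, edgeR adjusted p = 0.00232).

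The varieties were compared within each condition. In the warm, members were higher in HX58. In HX58_MA vs. HX17_MA 6 of 11 were higher (5.32% of all genes) and in HX58_MB vs. HX17_MB 8 of 13 (8.63%), and none was lower (5.37% and 10.1%). In the cold fewer differed. Higher in HX58 were 1 of 10 in CA (5.59% of all genes), 4 of 14 in FA (7.82%), 2 of 12 in CB (5.02%) and 2 of 14 in FB (4.9%), and 1 was lower in each of CB (5.65%) and FB (5.54%) and none in CA (5.9%) or FA (9.36%).

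KIN2 BnaA10g18350D was higher in HX58 in all 6 conditions, by 3.26 ± 0.54 in MA, 2.22 ± 0.30 in CA, 2.48 ± 0.30 in FA, 2.44 ± 0.37 in MB, 2.79 ± 0.40 in CB and 2.13 ± 0.25 in FB. The calls in CA, FA and FB held with any 1 library left out. The others were lost in MA without HX17_MA replicate 1 or 3 or HX58_MA replicate 1 or 2 (edgeR adjusted p of 0.00622 to 0.0102), in MB without HX58_MB replicate 1 (0.00517) and in CB without HX17_CB replicate 1 (0.00748) or 2 (0.00752). COR15B BnaC03g23750D was higher by 2.67 ± 0.28 in MA and 2.07 ± 0.35 in MB, and COR15B BnaA03g56650D by 1.55 ± 0.22 in MB. Of the 4 tested COR15B loci, 2 were called higher in MA and all 4 in MB. KIN2 BnaA02g02910D was higher by 1.97 ± 0.21 in MA and 1.21 ± 0.24 in MB, and KIN2 BnaAnng37980D by 2.13 ± 0.28 and 1.26 ± 0.27. LTI65 BnaA02g10970D was higher by 1.66 ± 0.25 in CB. It was also called higher in MA (mean FPKM 11.5 in HX58 against 2.11 in HX17) and in FA (470 against 178). LTI65 BnaA02g10980D, a low locus taken up below, was higher by 3.17 ± 0.63 in MB and 4.08 ± 0.75 in FA. The counts in the warm rested on single libraries. In MA 2 of the 6 calls remained without HX17_MA replicate 1, those of BnaC03g23750D and BnaA02g02910D. In MB 3 were made without HX17_MB replicate 1 or HX58_MB replicate 1, 4 when HX17_MB replicate 2 was left out, 5 when it was HX17_MB replicate 3, and 6 or 7 without another HX58_MB replicate. In CB none was made without HX17_CB replicate 1 or 2 and 1 without HX17_CB replicate 3, and in FA 1 without HX17_FA replicate 1 or HX58_FA replicate 1 and 2 or 3 without any other.

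**Figure D5:**
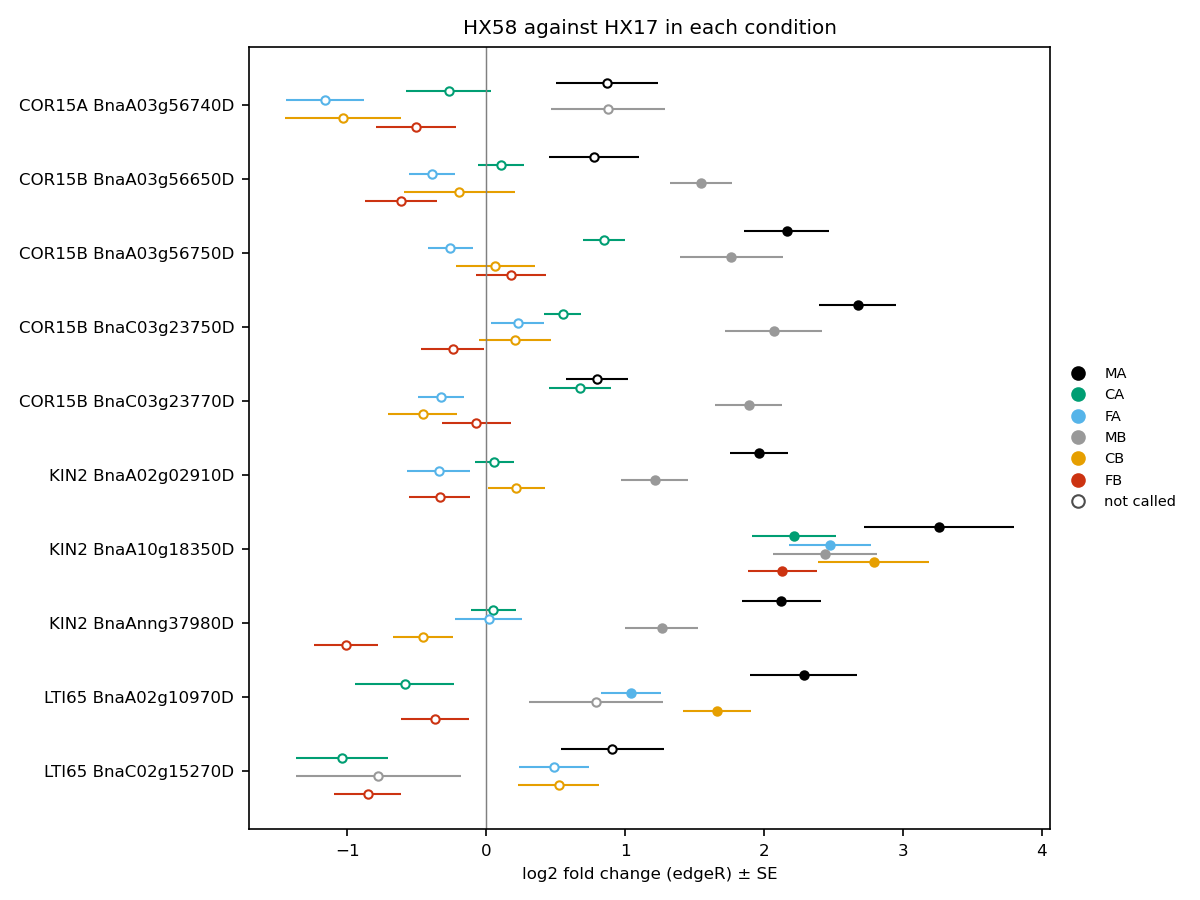
Log2 fold change (edgeR, ± SE) of HX58 against HX17 within each of the 6 conditions for the 10 loci with a mean CPM of 1 or more. Open symbols were not called. KIN2 BnaA10g18350D is called higher in HX58 in all 6 conditions.

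Whether the response to cold differed between varieties was tested as an interaction over 12 libraries each. It was called for 2 of 12 members in CA (0.055% of all genes negative), 3 of 14 in FA (0.116%), 1 of 14 in CB (0.51%) and 2 of 15 in FB (0.577%), and in each of them the log2 fold change was smaller in HX58. None was larger in HX58, where 0.114%, 0.114%, 1.41% and 1.02% of all genes were. For every 1 of these 4 counts some single library left out gave a count of 0.

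Some of the loci with a mean CPM under 1 differed by condition or variety, and they are named here after their values were seen. The KIN2 locus BnaC09g41890D had counts of 0, 253 and 163 in HX58_CB and 203, 303 and 283 in HX58_FB, and at most 6 in any other library. It had 0 counts in the 3 HX58_MB libraries, so it was at least 234-fold higher in HX58_FB, against 3 counts over the group. HX58_CB replicate 1, with 0 counts, did not show it. Against HX17_FB, where it had 1 count in all, it was called higher in HX58_FB. The LTI65 locus BnaC02g15280D had counts of 32, 23 and 20 in HX17_CB and 60, 46 and 61 in HX17_FB but 1, 0 and 0 in HX58_CB and 0, 1 and 0 in HX58_FB, and in HX58_FA it had 32, 11 and 14. It was the locus called lower in HX58_FB vs. HX17_FB (-7.22 ± 0.85, in every fit with 1 library left out) and in HX58_CB vs. HX17_CB, where the call was lost with any library left out (edgeR adjusted p of 0.0118 to 0.0246). The call of its rise in HX17_FB vs. HX17_MB (4.45 ± 0.77) was lost without HX17_FB replicate 3 (0.00509) or HX17_MB replicate 2 (0.00722).

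The LTI65 locus BnaC03g15510D had 207, 56 and 41 counts in HX58_FA, 0 in each HX58_CA library and at most 18 elsewhere, which is at least 67.3-fold higher in HX58_FA than in HX58_CA. BnaA03g12660D, also LTI65, had 114, 57 and 9 counts in HX58_FA and at most 8 elsewhere. HX58_FA replicate 1 held most of the counts of both. BnaC03g15510D was the third member called higher in HX58_FA vs. HX58_CA, a call lost without HX58_CA replicate 1 (edgeR adjusted p = 0.00574), HX58_FA replicate 1 (0.017) or HX58_FA replicate 2 (0.00557), and the member called higher in HX58_FA vs. HX58_FB, a call lost without any HX58_FA replicate or HX58_FB replicate 1 or 2 (0.00686 to 0.0252). The loci called lower against the control in HX58 were LTI65 BnaA02g10980D in HX58_CB (75, 113 and 23 counts in HX58_MB, 7, 6 and 0 in HX58_CB) and LTI65 BnaC08g47270D in HX58_FB (40, 42 and 30 counts in HX58_MB, 0, 1 and 5 in HX58_FB). Both calls were lost with 5 of the 6 libraries left out in turn (edgeR adjusted p of 0.00601 to 0.0211 and 0.00764 to 0.0198), all but HX58_MB replicate 3 for the first and all but HX58_FB replicate 3 for the second. None of the remaining 6 counted loci exceeded 51 counts in a library.

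Copies of a class did not keep a fixed ratio. LTI65 BnaC02g15270D was 0.652 to 0.871 times BnaA02g10970D in the HX17_CA libraries, 1.23 to 1.91 times in HX17_FA and 1.13 to 1.25 times in HX17_FB (FPKM). In HX58 the ratio was 0.447 to 0.561 in CA, 1.04 to 1.097 in FA and 0.829 to 0.861 in FB. It was 1.17 to 1.82 in HX17_CB and 0.599 to 0.810 in HX58_CB. KIN2 BnaAnng37980D was 0.567 to 0.637 times BnaA02g02910D in HX17_CA, 0.966 to 1.38 times in HX17_CB and 1.57 to 1.74 times in HX17_FB, and 0.565 to 0.634, 0.668 to 0.831 and 0.954 to 1.098 times in the same groups of HX58. COR15B BnaC03g23750D and BnaA03g56750D stayed closer, with ratios of 0.767 to 1.97 over all libraries.

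Over the 36 libraries the log2(summed CPM + 1) of COR15B and KIN2 had a Pearson r of 0.989, COR15A and COR15B 0.923, and COR15B and LTI65 0.814. These values describe the libraries, which share treatments, depth and scaling. Of 13146 annotated genes outside the members whose mean CPM reached 10, the 5 most like COR15B were 2 loci matched to the membrane protein At4g30650 (BnaC01g07710D, r = 0.959, and BnaA01g06490D, 0.935), a copy of GWD1 (0.937), a starch-phosphorylating enzyme, and 2 copies of COR413PM1 (both 0.933), a cold-regulated plasma membrane protein. For KIN2 they were BnaC01g07710D (0.947), the same COR413PM1 copies (0.936 and 0.930), ABF1 BnaC06g02640D (0.929), an abscisic acid response factor, and BnaC09g05590D (0.928), matched to a 21 kDa protein. For COR15A they were GRP10 (0.925), an RNA-binding protein, BAM2 (0.913), a beta-amylase, BnaC01g07710D (0.909), VHA-B3 (0.905), a proton pump subunit, and MPC4 (0.901), a mitochondrial pyruvate carrier. For LTI65 they were DREB1C BnaAnng34260D (0.937), CYP707A1 (0.931), which breaks down abscisic acid, ABF1 BnaC06g02640D (0.930), another GWD1 copy (0.929) and AIR12 (0.925).

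The regulators of the pathway were followed as a list of 91 loci for 20 matched symbols (ICE1/SCRM, the DREB1 family, abscisic acid factors and others). Against the control, 11 of 46 tested rose in HX17_CA, 35 of 62 in HX17_FA, 10 of 47 in HX17_CB and 35 of 64 in HX17_FB, and 12 of 49, 36 of 67, 16 of 52 and 42 of 68 in the same groups of HX58. Of all tested genes, 0.608%, 5.26%, 5.98% and 12.8% rose in HX17 and 2.6%, 9.42%, 14.2% and 16.1% in HX58. At most 6 regulators fell in any of these comparisons, where 0.449% to 13.6% of all genes fell. The median log2 fold change of the list was 0.47, 3.36, 0.16 and 2.62 in HX17_CA, HX17_FA, HX17_CB and HX17_FB and 0.20, 3.52, 0.13 and 4.47 in the same groups of HX58, beside the medians of -0.05 to 0.04 over all genes. Of 26 loci of 7 other cold-regulated target symbols, 7 of 19, 8 of 20, 4 of 18 and 11 of 20 tested rose in HX17 and 8 of 19, 10 of 22, 7 of 18 and 12 of 21 in HX58, and at most 1 fell. The numbers of regulators that rose were higher in the -4° groups than in the 4° groups of the same history and variety. The difference of these counts was not tested. More regulators were also tested at -4°, since a low locus enters the test through the group in which it is high. No DREB1A, DREB1D or DREB1F locus was tested in CA or CB of either variety. The counts and medians thus rest on different loci at -4° and 4°, and the filter sets part of their difference.

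The DREB1 loci of highest mean CPM were nearly silent except at -4°, apart from DREB1B and DREB1C. DREB1A BnaA08g30950D had 18.1, 16.8 and 21.7 FPKM in HX17_FA, 27.8, 48.2 and 40.6 in HX17_FB, 13.8, 12.1 and 13.8 in HX58_FA and 8.53, 11.8 and 9.57 in HX58_FB, and at most 0.044 FPKM in any other library. DREB1D BnaA10g07630D had 15.7, 29.3 and 12.2 FPKM in HX17_FA and 77.0, 197 and 88.0 in HX17_FB, against 57.6, 84.4 and 109 in HX58_FA and 118, 172 and 151 in HX58_FB. DREB1F BnaC08g15650D had 54.2, 51.9 and 74.4 in HX17_FA and 109, 58.4 and 110.1 in HX17_FB, and 53.1, 34.0 and 63.0 in HX58_FA and 104, 109 and 116 in HX58_FB. In HX58, each FA library was above each FB library for DREB1A, DREB1B (322, 403 and 212 FPKM in HX58_FB) and DREB1C, and below each for DREB1D and DREB1F. In HX58_FA vs. HX58_FB the values of DREB1A, DREB1B and DREB1C were 0.52 ± 0.17, 0.99 ± 0.21 and 0.64 ± 0.17 (log2). None of these was called (edgeR adjusted p = 0.0366, 0.00533 and 0.0129). In HX17 each FA library was below each FB library for DREB1A. DREB1B BnaCnng49280D had 4.29, 3.98 and 1.79 FPKM in HX17_CA, 117, 239 and 147 in HX17_FA, 7.65, 7.72 and 11.7 in HX58_CA and 528, 549.5 and 629.8 in HX58_FA. It was higher in HX58_FA vs. HX58_CA by 5.86 ± 0.20 and in HX17_FA vs. HX17_CA by 5.69 ± 0.44 (log2). DREB1C BnaAnng34260D had 7.77, 15.5 and 7.65 FPKM in HX58_MA, 28.8, 44.9 and 42.6 in HX58_CA, 329.6, 276 and 323 in HX58_FA, 0.309, 0.178 and 0.341 in HX58_MB, 25.7, 33.1 and 29.5 in HX58_CB and 194, 264 and 189 in HX58_FB. In HX17 the same locus had 0.633, 2.63 and 2.39 FPKM in HX17_MA, 42.7, 43.7 and 99.1 in HX17_CA, 86.4, 129 and 122 in HX17_FA, 0.331, 2.22 and 0.279 in HX17_MB, 12.5, 12.2 and 8.97 in HX17_CB and 59.3, 77.2 and 117 in HX17_FB. It was higher in HX58_FA vs. HX58_CA by 2.88 ± 0.18 (log2), and its value of 0.93 ± 0.34 in HX17_FA vs. HX17_CA was not called (edgeR adjusted p = 0.107). Between controls, it was the 1 of 45 tested regulators called lower in HX58_MB vs. HX58_MA (-5.36 ± 0.46, edgeR adjusted p = 0.00468), and 5 of 44 regulators were called higher in HX17_MB vs. HX17_MA, where 0.864% of all genes were. DREB1E had no count. SCRM BnaC01g30750D, which encodes ICE1, was lower by 1.88 ± 0.34 in HX17_FA, 1.97 ± 0.26 in HX17_FB, 1.43 ± 0.27 in HX58_FA and 1.39 ± 0.26 in HX58_FB, and was not called in the 4° groups. Of 7 SCRM loci 3 were tested, and this is the one of highest mean CPM. The median log2 fold change of the 3 was 0.26 in HX17_FA, 0.36 in HX17_FB, -0.23 in HX58_FA and 1.37 in HX58_FB, where another SCRM locus was called higher.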

How the data were processed

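RNA from leaves was sequenced in 36 libraries. Per the study's methods, the authors aligned reads with Hisat2 2.0.4 to the Genoscope B. napus genome (version not given in the sources used here), counted them per gene with HTSeq 0.9.1 and computed FPKM from counts and length. The deposited table holds raw counts and FPKM per library. FPKM equalled the count scaled by length and library total for every member (relative tolerance 0.0001). The authors' 36 columns of group means and 48 columns of their own fold changes and p-values were not used.

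Groups came from the sample labels. Counts were tested with edgeR 4.0.16 (R 4.3.3; quasi-likelihood, TMM factors, filterByExpr with a minimum count of 10 and total of 15) on the libraries of each comparison alone. A call needed an at least 2-fold difference with an adjusted p below 0.005 over all genes. Levels were described with Python 3.11.15 and pandas 2.3.3. The fits were tested on simulated data first. 

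Members were loci whose Swiss-Prot text held 1 of 6 phrases. Values per library were given for at most 3 loci per class with a mean CPM of 1 or more, by highest mean FPKM, and the 5 genes most like each class by Pearson r of log2(CPM + 1). The members and lists were chosen with earlier results of these data known. Alternatives were DESeq2 1.42.0, RLE factors, no low count filter, a looser call (adjusted p below 0.05 at any fold), a single model fitted to all 36 libraries, the replicate number as a block, the other control, each library left out in turn and, chosen after seeing the data, library totals in place of TMM factors. Seed, root and flower marker lists were checked beside the leaf list. The flower list, without 4 stress enhanced protein loci that share its symbols, summed to 0.938 to 34.3 FPKM.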

Additional observations from a re-analysis of the deposited data

Results flagged for a closer look

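The following values are differences between 2 responses that passed the test of the difference itself (log2 difference ± SE, edgeR, n = 3 libraries for each of 4 groups). All are negative. No explanation was tested.

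The rise from the control was smaller in HX58 than in HX17 in CA for KIN2 BnaA02g02910D (-1.87 ± 0.25, edgeR adjusted p = 0.00268) and COR15B BnaC03g23750D (-2.09 ± 0.30, 0.00418). In FA it was smaller for BnaA02g02910D (-2.23 ± 0.32, edgeR adjusted p = 0.00313), COR15B BnaA03g56750D (-2.34 ± 0.35, 0.00498) and BnaC03g23750D (-2.37 ± 0.34, 0.00303). In CB it was smaller for COR15B BnaC03g23770D (-2.26 ± 0.36, edgeR adjusted p = 0.00226), and in FB for COR15B BnaA03g56650D (-2.19 ± 0.37, 0.00339) and KIN2 BnaAnng37980D (-2.31 ± 0.38, 0.00318). Each of these calls was lost in 6 to 11 of 12 fits with 1 library left out. At every locus named here, each HX58 control library was above each HX17 library of the same control, in MA and in MB.

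The change from chilling to freezing was lower after acclimation than without it in HX17 for KIN2 BnaA02g02910D (-2.38 ± 0.34, edgeR adjusted p = 0.00483), LTI65 BnaA02g10970D (-6.00 ± 0.49, 0.000191), KIN2 BnaA10g18350D (-3.59 ± 0.49, 0.0045), LTI65 BnaC02g15270D (-4.47 ± 0.44, 0.00093) and COR15B BnaC03g23750D (-2.80 ± 0.33, 0.00202). In HX58 it was lower for BnaA02g02910D (-2.17 ± 0.25, edgeR adjusted p = 9.57e-05), BnaA02g10970D (-2.28 ± 0.38, 0.00109), COR15A BnaA03g56740D (-3.45 ± 0.49, 0.000372), COR15B BnaA03g56750D (-2.77 ± 0.33, 0.000108), BnaA10g18350D (-2.61 ± 0.44, 0.00126), BnaAnng37980D (-1.77 ± 0.27, 0.000662), BnaC03g23750D (-2.61 ± 0.28, 5.46e-05) and BnaC03g23770D (-2.77 ± 0.32, 8.93e-05). In HX17 the call of BnaA02g02910D was lost in all 12 fits with 1 library left out, that of BnaA10g18350D in 10, that of BnaC03g23750D in 6, that of BnaC02g15270D without HX17_FA replicate 1 (edgeR adjusted p = 0.00529), and that of BnaA02g10970D in none. In HX58 only the call of BnaA10g18350D was lost, without HX58_FA replicate 1 (0.00508) or 3 (0.00548).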

How the results depend on the processing

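No called value of the 10 loci with a mean CPM of 1 or more reversed under any alternative. Loci under that level are not among these values. Among alternatives that kept all libraries, 1121 of 1156 called values of these 10 loci kept their call and 35 lost it. With 1 library left out 838 of 1050 kept it and 212 lost it. The looser call (adjusted p below 0.05 at any fold) is among the alternatives behind the 1156. No called value can lose its call under it, so its part of the 1121 was fixed in advance. With 1 library left out, the number of members called ran from 4 to 10 in HX17_CA vs. HX17_MA, 8 to 9 in HX17_FA vs. HX17_MA, 8 to 10 in HX17_CB vs. HX17_MB, 10 to 13 in HX17_FB vs. HX17_MB, 9 to 10 in HX58_CA vs. HX58_MA, 6 to 8 in HX58_FA vs. HX58_MA, 10 to 11 in HX58_CB vs. HX58_MB and 11 to 12 in HX58_FB vs. HX58_MB. It ran from 0 to 2 in HX17 and 9 to 11 in HX58 for FA vs. CA, was 2 in both for FB vs. CB, and ran from 0 to 2 in both for CA vs. CB, 3 to 9 and 9 to 11 for FA vs. FB, and 0 to 1 and 0 to 0 for MB vs. MA. Between varieties it ran from 2 to 6 in MA, 1 to 1 in CA, 1 to 3 in FA, 3 to 7 in MB, 0 to 3 in CB and 3 to 3 in FB. For the variety interaction it ran from 0 to 2 in CA, FA and CB and 0 to 3 in FB, and for acclimation by freezing from 1 to 4 in HX17 and 7 to 10 in HX58.

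Counts moved by over 1.5 times as follows. With DESeq2 they were 5 in HX17_FA vs. HX17_CA, 5 in HX17_FB vs. HX17_CB, 4 in HX17_CA vs. HX17_CB, 3 and 5 in MB vs. MA of HX17 and HX58, 4, 5, 3 and 7 in the variety interactions by CA, FA, CB and FB, and 10 in acclimation by freezing of HX17. With the looser call (adjusted p below 0.05 at any fold) they were, in the order of those results, 6, 5, 5, 3 and 3, 4, 5, 5 and 6, and 10, and also 4 in HX58_FB vs. HX58_CB, 4 in HX58_CA vs. HX58_CB, 4 in HX58_CA vs. HX17_CA and 5 in HX58_FB vs. HX17_FB. With 1 model of all 36 libraries they were 5 in HX17_FA vs. HX17_CA, 2 in HX17_CA vs. HX17_CB, 1 in HX58_CA vs. HX58_CB, 3 and 3 in MB vs. MA, 2 in HX58_CA vs. HX17_CA, 1 in HX58_FA vs. HX17_FA, and 4, 3 and 5 in the variety interactions by CA, CB and FB. With no low count filter they were 2 in HX17_CA vs. HX17_CB, 3 and 2 in MB vs. MA, and 4 in the variety interactions by CA and by FB. RLE factors gave 1 in HX58_CA vs. HX58_CB, and library totals gave 1 there and 1 in the interaction by FB. The cause was not tested.

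The replicate numbers did not pair the libraries (correlations of same-numbered deviations from -0.611 to 0.324, and 0 of 24 comparisons with all 3 over 0.1). With the replicate number as a block, the count was 0 in HX17_CA vs. HX17_CB, 1 in HX58_CA vs. HX58_CB, 2 in HX58_MA vs. HX17_MA, 4 in HX58_MB vs. HX17_MB, 0, 0 and 1 in the variety interactions by CA, FA and FB and 3 in acclimation by freezing of HX17. The sign of 3 uncalled values near 0 turned. BnaA02g10970D in HX17_FA vs. HX17_CA was at 0.0081 with no filter, 0.15 with the block and -0.25 to 0.61 with 1 library left out. BnaA10g18350D in HX58_FB vs. HX58_CB was at 0.0086 with the block and -0.26 to 0.36 with 1 library left out. BnaAnng37980D in HX17_CA vs. HX17_CB was at -0.50 with library totals, -0.00362 in 1 model of all libraries and -0.12 to 0.12 with 1 library left out.

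Library totals in place of TMM factors moved the median of all genes by up to -0.53 on the log2 scale. The share of calls that were higher then went from 42.2% to 60.4% in HX17_CB vs. HX17_MB, 83.6% to 66.3% in HX17_FB vs. HX17_CB and 59.8% to 37.9% in HX17_FA vs. HX17_FB. It went from 45.5% to 64.8% between varieties in FA and from 46.9% to 60.3% in FB. Low counts limit the values of the loci with a mean CPM under 1.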
